A study of Mus musculus with 132 samples.

Results

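The small leucine-rich proteoglycans are secreted proteins of the extracellular matrix that share a core of leucine-rich repeats, and 9 of their genes were followed in loaded and control mouse tibiae. They were chosen by symbol: Bgn, Dcn and Aspn of class I, Fmod, Lum, Prelp and Omd of class II, Ogn of class III and Podn of class V. All 9 were found among the 23412 gene symbols of the deposited normalized counts, and all 9 had a normalized count of at least 10 in at least 4 libraries, the filter that left 13050 genes for testing.

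Most of these proteins carry chondroitin, dermatan or keratan sulfate chains and bind to the surface of collagen fibrils, where they set fibril diameter and spacing. Several also hold growth factors of the TGF-β family in the matrix. In bone they are made by osteoblasts, osteocytes and fibroblast-like cells of the periosteum, and tendon, ligament and cartilage make many of them too.

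The bones came from 22 C57Bl/6J mice, all female and 10 weeks old. Cyclic axial compression with peaks of 9 N was applied to the left tibia, in 1200 cycles a day at 4 Hz, and each mouse's contralateral tibia served as its control. Tibiae were taken 1 h (5 mice), 3 h (4 mice) or 24 h (4 mice) after a single bout, or after repeated loading, which the labels name 5d (5 mice, 5 days of loading, taken on day 8) and 7d (4 mice, 7 daily bouts, taken 24 h after the last). Each tibia was cut into 3 segments of cortical bone, the metaphyseal shell below the growth plate, the proximal diaphysis and the mid-diaphysis, and the labels state that cancellous bone was taken out first. Each segment of each limb gave 1 library of 3′ mRNA-seq, a method that reads the ends of transcripts, so that each mouse gave 6 libraries. All 22 mice had a loaded limb, so a change shared by both limbs of a mouse is not part of any difference between limbs.

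The members fall into chromosomal clusters. Prelp (chr1:133910304-133921414 in mm10, minus strand) and Fmod (chr1:134037254-134048277, plus strand) are neighbours on chromosome 1. Dcn (chr10:97479609-97518143) and Lum (chr10:97565128-97572703) are neighbours on chromosome 10. Aspn (chr13:49544443-49567565), Omd (chr13:49582462-49592822) and Ogn (chr13:49608046-49624501) follow each other on chromosome 13, with gaps of 14.9 and 15.2 kb. Podn is on chromosome 4 and Bgn on chromosome X. Cenpp lies across Aspn, Omd and Ogn on the other strand, and Scp2 overlaps Podn on the same strand. The strand setting of the counting is not given in the sources used here, so the values of these genes may hold reads of their partners. Cenpp had at most 46.99 normalized counts in any library, with a median of 10.91. Scp2 had a median of 23.17 and at most 73.29, above the Podn medians of 2.437 to 12.62 in the 6 combinations of segment and limb.

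The start regions of Fmod, Aspn and Ogn are shown because these 3 genes stood higher in the loaded than in the control shell after repeated loading in most mice, and Aspn and Ogn lie in the same chromosomal cluster. Lum and Prelp stood higher there in most mice too, but Lum matched no window and that of Prelp is not shown. RefSeq promoter windows on GRCm38.p6 run from 250 bases before to 50 bases after each gene's start, and 7 of the 9 members matched, with 8 windows in all. Capitals mark matches to 5 searched motifs on either strand: TATAAA (the TATA box), TGANTCA (AP-1), TGTGGT (RUNX), GGAATG (TEAD) and CCAAT (the CCAAT box). The windows are chr1:134037004-134037303 for Fmod, chr13:49544193-49544492 for Aspn and chr13:49607765-49608064 for Ogn, all on the plus strand.
Fmod: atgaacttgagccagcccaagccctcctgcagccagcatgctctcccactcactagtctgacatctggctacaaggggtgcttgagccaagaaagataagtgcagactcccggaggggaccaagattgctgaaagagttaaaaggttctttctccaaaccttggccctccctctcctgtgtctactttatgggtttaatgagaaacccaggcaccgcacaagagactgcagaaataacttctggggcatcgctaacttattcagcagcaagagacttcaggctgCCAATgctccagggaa
Aspn: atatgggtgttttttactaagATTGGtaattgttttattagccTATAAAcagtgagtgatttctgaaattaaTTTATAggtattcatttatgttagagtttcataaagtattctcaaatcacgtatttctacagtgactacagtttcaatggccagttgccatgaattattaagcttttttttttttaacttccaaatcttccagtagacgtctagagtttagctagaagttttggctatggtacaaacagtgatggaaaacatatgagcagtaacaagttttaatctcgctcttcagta
Ogn: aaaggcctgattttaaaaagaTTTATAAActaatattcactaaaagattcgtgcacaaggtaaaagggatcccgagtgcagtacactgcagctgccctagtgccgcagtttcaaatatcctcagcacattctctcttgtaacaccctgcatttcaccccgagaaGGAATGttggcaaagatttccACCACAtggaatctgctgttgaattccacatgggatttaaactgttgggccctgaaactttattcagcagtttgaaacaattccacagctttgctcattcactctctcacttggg
The Fmod window held 1 match, a CCAAT 35 bases after the start. The Aspn window held TATAAA on the plus strand 207 bases before the start, the same letters on the minus strand 178 bases before it and CCAAT on the minus strand 229 bases before it. The Ogn window held 2 overlapping TATAAA matches, 227 bases before the start on the plus strand and 229 bases before it on the minus strand. It also held TGTGGT on the minus strand 65 bases before the start and GGAATG on the plus strand 86 bases before it. No motif was shared by all 3 windows. Of 32851 promoter windows, 13.6% held TATAAA, 7.81% TGANTCA, 16.8% TGTGGT, 14.7% GGAATG and 37.4% CCAAT. G and C made up 51.0% of the Fmod window, 31.0% of the Aspn window and 42.3% of the Ogn window, against a median of 52.7% over all windows. These letters describe the windows and were not tested against expression.

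The libraries held 290325 to 5410458 reads, with a median of 1698314. The median depth was about 1930000 reads in loaded and 1889000 in control shells, 1439000 in loaded and 1772000 in control proximal segments, and 1056000 in loaded and 2227000 in control mid-diaphyses. Depth thus moved with loading in the mid-diaphysis, and its part in the values there was not tested. Rn45s, the precursor of ribosomal RNA, took 0.136% to 60.8% of the reads. Its medians were 3.02% in loaded and 2.82% in control shells, and 15% in loaded and 13% in control mid-diaphyses. In proximal segments the medians were 9.035% in loaded and 4.744% in control limbs. The part of Rn45s in the differences between limbs was not tested. Osteocyte markers were detected in every library, with a summed normalized count of 70.69 to 4403. In 4 mid-diaphyseal libraries (loaded 1h mouse 2, loaded 5d mice 4 and 5, control 1h mouse 3), mesothelial markers summed to 1561 to 1831, against at most 48.58 in the libraries outside these 4 and the 3 named next. In these 3 libraries (loaded proximal 1h mouse 5, loaded mid 7d mouse 1, control mid 1h mouse 5), osteocyte markers summed to only 70.69 to 368.8 and neutrophil markers to 64290 to 136700. Between 4 and 7 of the 9 members were at their lowest of 22 libraries in these 3, so several results that rest on them are given with and without them.

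**Figure D1:**
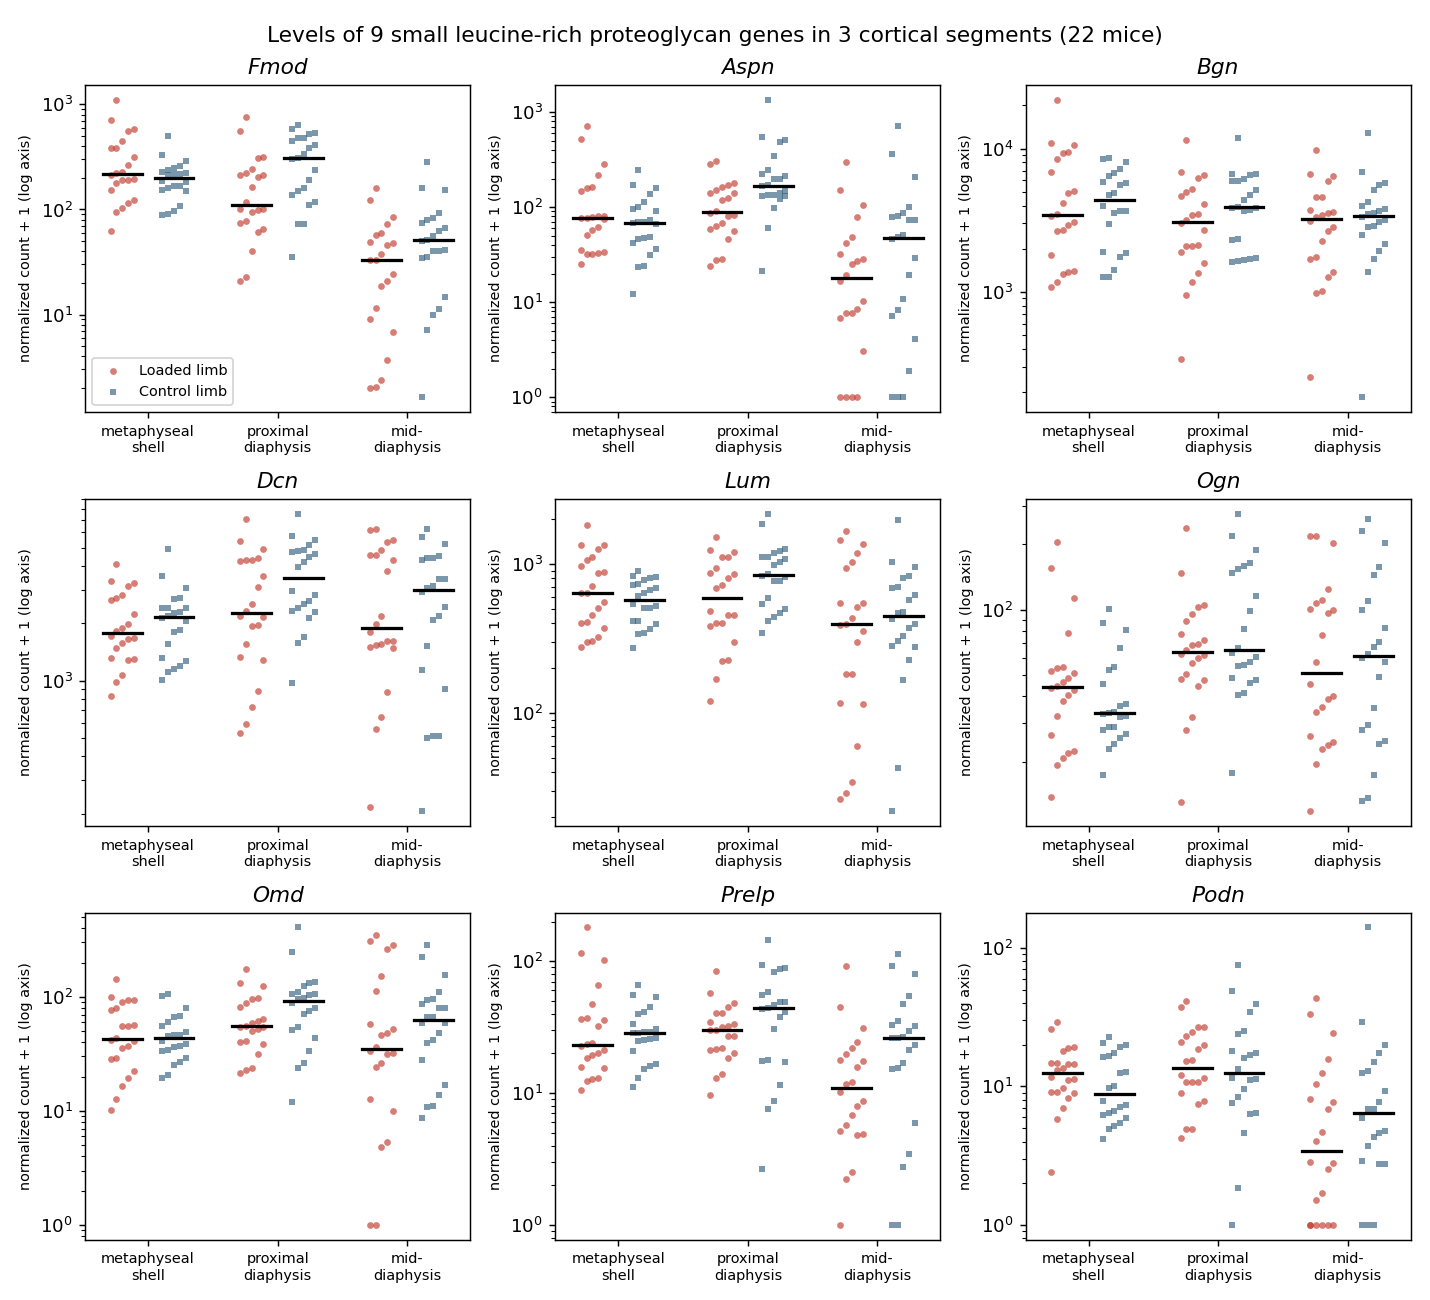
Normalized counts plus 1 (log axis) of the 9 genes in each library, by segment and limb, with bars at the medians of 22 libraries. Fmod and Aspn are lowest in most mid-diaphyseal libraries, and Podn is near 0 in many.

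The class I genes are Bgn, Dcn and Aspn. Bgn encodes biglycan, a chondroitin or dermatan sulfate proteoglycan that is abundant in bone. The Bgn level was 1078 to 21900 in loaded shells (median 3436) and 1257 to 8589 in control shells (median 4345). In proximal segments it had a median of 3090 in loaded and 3894 in control limbs, and in mid-diaphyses a median of 3210 in loaded and 3406 in control limbs. The Bgn medians of the 3 segments lay well within the range of any one segment. Dcn encodes decorin, which binds along collagen fibrils and carries 1 chain. Its level was 531.4 to 7034 in loaded proximal segments (median 2258) and 975 to 7534 in control proximal segments (median 3466). In the shell the median was 1774 in loaded and 2158 in control limbs, and Dcn was lowest there in the control limbs of 14 of 22 mice.

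Aspn, the third gene of class I, encodes asporin, which carries a run of aspartate residues in place of a chain and competes with decorin for collagen. It had 24.45 to 708.3 normalized counts in loaded shells (median 76.44) and 11.25 to 244.1 in control shells (median 67.35). In the proximal diaphysis it had 23.15 to 306.7 in loaded limbs (median 88.01) and 20.33 to 1346 in control limbs (median 167.2). In the mid-diaphysis it had 0 to 295.7 in loaded limbs (median 16.89) and 0 to 708.1 in control limbs (median 46.13). The proximal segment was the highest of the 3 in the control limbs of 18 of 22 mice, while the shell was the highest in the loaded limbs of 11. The count was 0 in 7 libraries.

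Fmod, the first gene of class II, encodes fibromodulin, a keratan sulfate proteoglycan best known from tendon that binds collagen. It had 61.48 to 1105 normalized counts in loaded shells (median 218.4) and 86.75 to 497.4 in control shells (median 197.5). In the proximal diaphysis it had 19.64 to 760.2 in loaded limbs (median 108.1) and 34.04 to 630.0 in control limbs (median 305.4). In the mid-diaphysis it had 0.99 to 159.9 in loaded limbs (median 31.98) and 0.63 to 283.7 in control limbs (median 50.08). The mid-diaphysis was the lowest of the 3 segments in 20 of 22 mice in each limb. The highest was the shell in the loaded limbs of 14 mice and the proximal diaphysis in the control limbs of 14 mice.

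Lum encodes lumican, which binds the same collagen site as fibromodulin. Its median was 637.6 in loaded and 572.5 in control shells, 586.6 in loaded and 840.5 in control proximal segments, and 392.1 in loaded and 444.3 in control mid-diaphyses. The proximal segment was its highest in the control limbs of 16 mice. Prelp encodes a protein that links heparan sulfate to collagen, and its median was 22.33 in loaded and 27.62 in control shells, 28.95 in loaded and 42.91 in control proximal segments, and 9.937 in loaded and 25.3 in control mid-diaphyses. Omd encodes osteomodulin, or osteoadherin, which binds hydroxyapatite and is made by osteoblasts. The Omd median was 41.88 in loaded and 42.34 in control shells, 54.03 in loaded and 91.01 in control proximal segments, and 34.11 in loaded and 61.64 in control mid-diaphyses. The ranges of all 3 segments overlapped for each of these genes.

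Ogn of class III encodes osteoglycin, also called mimecan, a keratan sulfate proteoglycan found in bone matrix. It had a median of 42.92 in loaded and 32.34 in control shells, 63.13 in loaded and 64.24 in control proximal segments, and 50.39 in loaded and 60.36 in control mid-diaphyses. The shell was its lowest segment in the control limbs of 16 mice. In the 4 mid-diaphyseal libraries that held mesothelial markers, Ogn had 202.2 to 217.8. These were ranks 20 to 22 from the lowest of the 22 libraries of their segment and limb. Podn of class V encodes podocan, first described in glomerular podocytes. It was sparse: its median was 11.42 in loaded and 7.757 in control shells, and 2.437 in loaded and 5.386 in control mid-diaphyses. It had a median of 11 reads a library, 10 libraries at 0, 76 with 10 reads or more and 62 with a normalized count of 10 or more, and counting error limits the precision of its values.

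The 3 segments of each limb were compared within each mouse with limma, on log2(normalized count + 1), with Benjamini-Hochberg adjustment over all 13050 genes and a threshold of 0.05. A difference is given as log2 ± SE over 22 mice, and it understates the change of low genes. In bulk bone, fewer cells of a type and less RNA per cell cannot be told apart.

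In control limbs, the shell differed from the mid-diaphysis in 1 of the 9 genes, against 7.36% of all genes tested (6.63% higher and 0.736% lower). This was Fmod, higher in the shell by 2.20 ± 0.30 in log2 (adjusted p = 3.13e-05) and higher in 21 of 22 mice. Aspn had a difference of 1.36 with an adjusted p of 0.0976, higher in 13 of 22 mice. Ogn had −0.63, with an adjusted p of 0.134. Prelp (0.61), Podn (0.60), Lum (0.51) and Bgn (0.32) had positive differences, and Dcn (−0.07) and Omd (−0.23) negative ones, and these 6 were not called. The median difference was 0.51 over the 9 genes and 0.17 over all genes. Without 1h mouse 5, Ogn had −0.77 with an adjusted p of 0.0439, within a range of 0.0437 to 0.277 over its alternatives. Upper-quartile scaling called 3 members: Fmod, Aspn (1.57, adjusted p = 0.0268, in a range of 0.0268 to 0.346) and Lum (0.75, adjusted p = 0.0352, in a range of 0.0352 to 0.506). Aspn was also called in 1 model over all libraries, with an adjusted p of 0.0393.

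The control shell stood below the control proximal diaphysis in 5 of the 9 genes, against 6.46% of all genes tested (1.88% lower and 4.58% higher). Upper-quartile scaling, which moved the median of all genes to 0.30, gave 1237 of 1356 called genes as higher, against 598 of 843 with the deposited scaling, and called the same members except Omd. Aspn was lower, at −1.54 ± 0.23 (adjusted p = 0.000167) and Ogn at −1.10 ± 0.16 (adjusted p = 0.000167), each lower in the shell in 21 of 22 mice. Dcn was lower, at −0.71 ± 0.15 (adjusted p = 0.00658) and Lum at −0.59 ± 0.14 (adjusted p = 0.0130). Omd was lower, at −0.81 ± 0.24 (adjusted p = 0.0392). Fmod, which had separated the shell from the mid-diaphysis, had −0.34 here with an adjusted p of 0.268, and Bgn had 0.02. Podn (−0.36) and Prelp (−0.27) were not called. The 5 lower genes include all 3 of the chromosome 13 neighbours and both genes of the chromosome 10 pair. The median was −0.59 over the 9 genes and 0.17 over all genes.

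The Omd call was the least firm. It was lost in 5 other settings (adjusted p = 0.0509 with upper-quartile scaling, 0.0584 with the variance trend over the mean difference, 0.0627 with no filter, 0.101 without pairing by mouse, 0.174 in 1 model), and without any one of 9 mice (1h mice 2 and 3, 3h mice 1 and 4, 24h mice 2 and 4, 5d mouse 5, 7d mice 1 and 3), with adjusted p between 0.0512 and 0.0687, within a range of 0.0084 to 0.174 over its alternatives. In 1 model over all libraries the adjusted p was 0.0596 for Aspn, 0.0831 for Dcn and 0.192 for Lum. Lum was also lost without pairing by mouse (0.072). Ogn kept its call in every alternative, and all 5 were called both without the 4 libraries that held mesothelial markers and without the 3 low in osteocyte markers.

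Between the control proximal diaphysis and mid-diaphysis, 2 of the 9 genes were called, against 0.207% of all genes. Aspn was higher in the proximal diaphysis by 2.90 ± 0.44 (adjusted p = 0.000551) in 19 of 22 mice, and Fmod by 2.54 ± 0.36 (adjusted p = 0.000206) in 20. The other 7 genes had positive differences, 1.10 for Lum, 0.95 for Podn, 0.88 for Prelp, 0.64 for Dcn, 0.58 for Omd, 0.47 for Ogn and 0.29 for Bgn. Lum, higher in 19 of 22 mice, had an adjusted p of 0.0555. It passed without 1h mouse 5 (0.0443) or 24h mouse 2 (0.0283), and in 4 other settings, among them 1 model over all libraries (0.00504) and upper-quartile scaling (0.0308), within a range of 0.00504 to 0.307 over its alternatives. The median was 0.88 over the 9 genes and 0.01 over all genes.

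**Figure D2:**
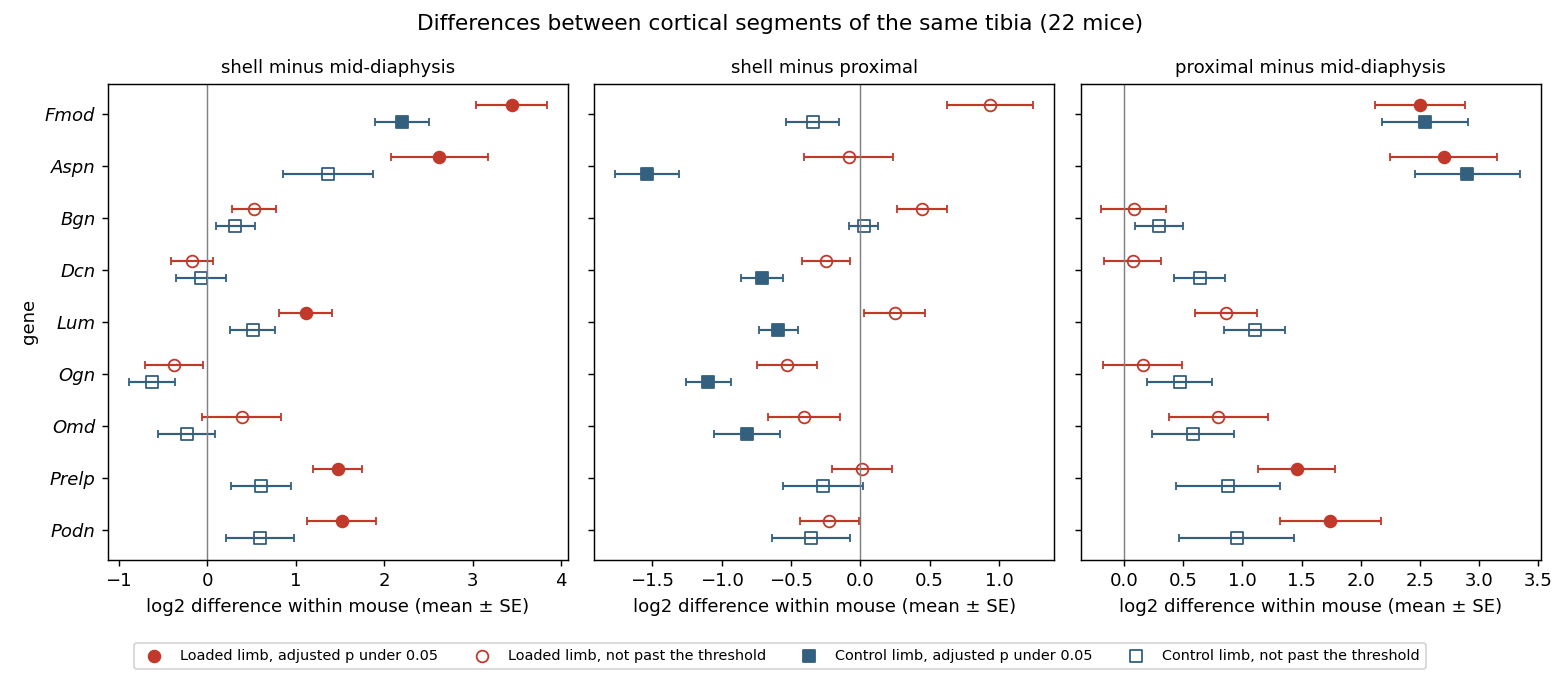
Log2 differences between segments within a limb for the 9 genes (mean ± SE, 22 mice), with red circles for loaded limbs and blue squares for control limbs. Filled symbols passed an adjusted p of 0.05. Fmod and Aspn are well above 0 in the proximal minus mid panel in both limbs.

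In loaded limbs, the shell stood above the mid-diaphysis in 5 of the 9 genes, against 10.6% of all genes tested (9.38% higher and 1.2% lower). Fmod was higher by 3.44 ± 0.40 (adjusted p = 3.44e-06) in 21 of 22 mice and Aspn by 2.62 ± 0.55 (adjusted p = 0.00221) in 18. Prelp was higher by 1.48 ± 0.28 (adjusted p = 0.000851) in 20 mice. It had a median of 6 reads in loaded mid-diaphyses, against 24.5 in control ones. Counting error thus limits each Prelp difference from the loaded mid-diaphysis. Podn was higher by 1.52 ± 0.39 (adjusted p = 0.0108) and Lum by 1.11 ± 0.30 (adjusted p = 0.0138). Bgn (0.53), Omd (0.39), Dcn (−0.17) and Ogn (−0.37) were not called. With upper-quartile scaling Bgn was called too (0.79, adjusted p = 0.0148, in a range of 0.0148 to 0.526). The Podn call was lost with edgeR (0.0667) and without 10 libraries (0.0616), within a range of 0.0015 to 0.0667 over its alternatives. The Lum call was lost without the 4 libraries that held mesothelial markers (0.72, adjusted p = 0.0994), without 10 libraries (0.141) and without pairing by mouse (0.0618), within a range of 0.00049 to 0.141.

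Between the loaded shell and proximal diaphysis, limma called 0 of the 9 genes, against 3.3% of all genes (2.28% higher and 1.02% lower). With upper-quartile scaling 739 of 823 called genes were higher, against 298 of 431 with the deposited scaling, and Fmod was called (1.02, adjusted p = 0.0463, in a range of 0.0463 to 0.446). Fmod at 0.94 ± 0.31 (adjusted p = 0.079, higher in 15 of 22 mice), Bgn at 0.45 and Ogn at −0.53 were the 3 members with an unadjusted p under 0.05. The quasi-likelihood test of edgeR on the recovered reads also called 0. Aspn, which was lower in the control shell, had −0.08 in loaded limbs. The other 5 members lay between −0.41 for Omd and 0.25 for Lum, with Dcn at −0.25, Podn at −0.22 and Prelp at 0.01.

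The loaded proximal diaphysis stood above the loaded mid-diaphysis in 4 of the 9 genes, against 1.65% of all genes tested (1.62% higher and 0.023% lower). Fmod was higher by 2.50 ± 0.38 (adjusted p = 0.000376) and Aspn by 2.70 ± 0.45 (adjusted p = 0.00152), each in 20 of 22 mice. Prelp was higher by 1.46 ± 0.33 (adjusted p = 0.0141) in 19 mice and Podn by 1.74 ± 0.43 (adjusted p = 0.0285) in 15. The Podn call was lost without any one of 7 mice (1h mouse 2, 3h mouse 3, 24h mice 3 and 4, 5d mouse 4, 7d mice 2 and 3), with adjusted p between 0.0504 and 0.0627. It was also lost with edgeR (0.211), without 10 libraries (0.146), without the 4 libraries that held mesothelial markers (1.57, adjusted p = 0.144), with no filter (0.066) and with a pseudocount of 5 (0.0567), within a range of 0.00163 to 0.211 over its alternatives. Fmod and Aspn were called without the 4 libraries that held mesothelial markers, while Prelp then had 1.23 and an adjusted p of 0.0921, and with edgeR 0.0528, within a range of 0.00127 to 0.0921 over its alternatives. Aspn was lost without 10 libraries (0.0515). Lum had 0.86, and it was called with upper-quartile scaling (0.0168) and in 1 model (0.0189), within a range of 0.0168 to 0.381. Omd (0.80), Ogn (0.16), Bgn (0.08) and Dcn (0.07) were not called.

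Markers of other cell types moved between segments too. Of 9 chondrocyte markers, 8 were higher in the control shell than in the control mid-diaphysis and 8 than in the control proximal diaphysis. Of 6 endothelial markers, 5 were higher in the control shell than in the control mid-diaphysis, as were 4 of 6 adipocyte and 4 of 6 osteoclast markers. Of 7 osteoblast, 8 skeletal muscle and 5 mesothelial markers, 0 differed between control segments by limma. Of 12 markers of periosteum, tendon and fibroblasts, 4 were lower in the control shell than in the control proximal diaphysis, among them Postn (periostin) at −1.13 and Thbs4 at −1.89, and 1 was higher, Comp by 1.57. Postn was also higher in the control proximal diaphysis than in the control mid-diaphysis by 1.44 (adjusted p = 0.0208). Sost, the osteocyte gene for sclerostin, was lower in the control shell than in the control mid-diaphysis at −1.64. The part of these cell types, and of Rn45s, in the segment differences of the 9 genes was not tested.

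Other genes of the pathway also differed between control segments. Over all genes tested, 7.36% were called for shell minus mid-diaphysis, 6.46% for shell minus proximal and 0.207% for proximal minus mid-diaphysis. Of 8 other proteoglycans of the family, 5 could be tested, and 2 were higher in the control shell than in the control mid-diaphysis: Chad (chondroadherin, a cartilage protein) by 2.90 and Podnl1 by 1.46. Chad was also higher in the control shell than in the control proximal diaphysis, by 1.53 (adjusted p = 0.0353). Of 14 collagen genes, Col6a2 and Col6a3, chains of the beaded type VI fibrils, were higher in the control shell than in the control mid-diaphysis by 1.09 and 0.93. Col3a1 was lower in the control shell than in the control proximal diaphysis at −1.04 (adjusted p = 0.000779) and Col5a2 at −0.83 (adjusted p = 0.000999). Col3a1, the collagen of reticular and early fibrils, was also higher in the control proximal diaphysis than in the control mid-diaphysis, by 1.81 (adjusted p = 0.0047), as was Col6a3 by 1.24 (adjusted p = 0.0208). Of 22 genes of chondroitin and dermatan sulfate synthesis, 2 were higher in the control shell than in the control mid-diaphysis (Chst7 by 1.45 and Chpf by 0.64), 1 was lower in the control shell than in the control proximal diaphysis (Ust at −0.50) and 0 differed between control proximal and mid-diaphysis. Of 8 genes of keratan sulfate synthesis tested, B4galt1 was higher in the control shell than in the control mid-diaphysis by 0.69 and than in the control proximal diaphysis by 0.51. Of 17 binding partners and proteases tested, Tgfb3 (−0.62) and Tgfbr2 (−0.47) were lower and Met (1.02) was higher in the control shell than in the control proximal diaphysis, and Mmp13, a collagenase, was higher in the control shell than in the control mid-diaphysis by 1.06.

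The main question of the study, which genes loading changes in each segment over time, was asked of the 9 genes by loaded minus control in the same mouse. In each of the 15 combinations of segment and time, limma called 0 of the 9 genes, against 0% to 0.00766% of all genes, which is at most 1 gene. The same test on the mean of the 3 segments called 0 of 9 at each time, against 0% to 0.123% of all genes, and edgeR called 0 of 9 in the same comparisons. Members with an unadjusted p under 0.05 are given next, with the count over all genes tested in brackets. In the shell they numbered 1 at 1h (321), 3 at 5d (299) and 2 at 7d (974). In the proximal diaphysis they numbered 3 at 1h (627), 5 at 5d (360) and 3 at 7d (2194). They numbered 3 in the mid-diaphysis at 5d (1098) and 2 at 7d (899), and 0 in the remaining combinations of segment and time. Over the 9 genes, the lowest and highest means were −0.99 (Aspn) and 0.08 (Omd) in the shell at 1h, −0.75 (Prelp) and 0.74 (Aspn) at 3h, −0.43 (Prelp) and 0.66 (Podn) at 24h, −0.46 (Dcn) and 1.67 (Aspn) at 5d, and −0.18 (Bgn) and 1.21 (Fmod) at 7d. Those of the proximal diaphysis were −1.60 (Fmod) and 0.05 (Prelp) at 1h, −0.88 (Prelp) and 1.33 (Podn) at 3h, −1.08 (Aspn) and 0.31 (Lum) at 24h, −1.78 (Fmod) and −0.11 (Podn) at 5d, and −1.59 (Aspn) and 1.09 (Podn) at 7d. In the mid-diaphysis they were −0.81 (Prelp) and 0.81 (Ogn) at 1h, −1.69 (Prelp) and 1.56 (Aspn) at 3h, −1.44 (Aspn) and 1.23 (Omd) at 24h, −2.49 (Aspn) and 0.82 (Prelp) at 5d, and −2.35 (Omd) and −1.0 (Bgn) at 7d. The Ogn mean at 1h includes 2 libraries that held mesothelial markers, loaded mouse 2 (217.6) and control mouse 3 (202.2). It also includes control mouse 5 (16.41), low in osteocyte markers, and its value without these libraries is not given. The values follow as descriptions.

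**Figure D3:**
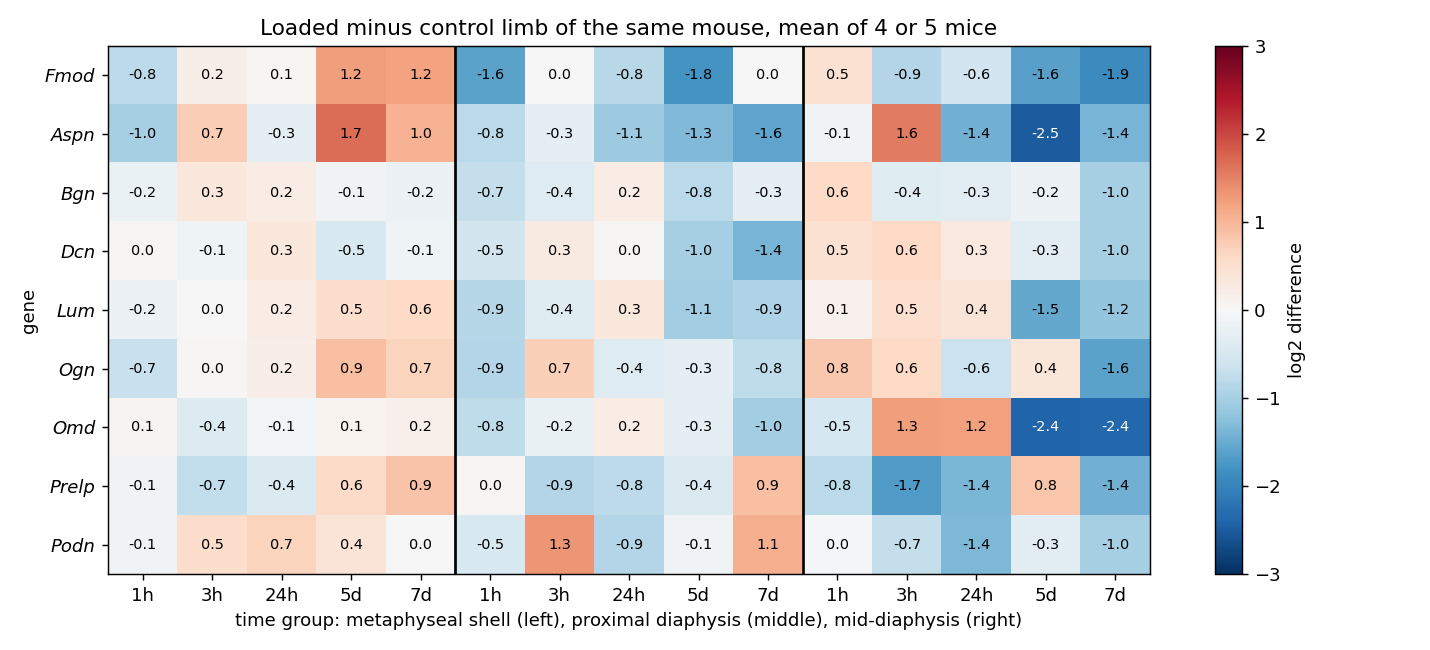
Mean log2 loaded minus control for the 9 genes at each time and segment (4 or 5 mice a tile), as a heat map. Shell tiles at 5d and 7d are positive for Fmod and Aspn, and mid-diaphyseal tiles at 7d are negative for all 9 genes.

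In the shell after repeated loading, Fmod, Aspn and Ogn were higher in the loaded limb of most mice. Lum (0.53 at 5d and 0.60 at 7d) and Prelp (0.58 and 0.86) were too, each in 3 of 5 and 3 of 4 mice. At 5d, Fmod had 713.9, 1105, 442.8, 381.8 and 261.7 normalized counts in the loaded shells of mice 1 to 5, against 181.3, 256.4, 95.6, 209.7 and 497.4 in their control shells. The loaded shell was the higher in 4 of 5 mice, and the groups overlapped through mouse 5. The difference was 1.24 ± 0.39 (limma adjusted p = 0.945).

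At 7d, Fmod had 213.2, 314.8, 585.3 and 555.1 in the loaded shells of mice 1 to 4, against 158.1, 151.6, 290.6 and 107.7 in their control shells. The loaded shell was the higher in 4 of 4 mice, with a difference of 1.21 ± 0.43 (limma adjusted p = 0.450). At 1h the order was the other way in all 5 mice, with 94.35, 190.4, 190.6, 102.6 and 113.3 in loaded shells, against 226.8, 326.7, 234.5, 223 and 164.7 in control shells. The difference at 1h was −0.80 (limma adjusted p = 1), and 2 of the 5 loaded shells lay above the lowest control shell.

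Aspn had 157.2, 162.1, 525.9, 79.96 and 147.3 in the loaded shells of the 5d mice, against 46.95, 137.7, 11.25, 65.89 and 89.51 in their control shells. It was higher in 5 of 5 mice, by 1.67 ± 0.56 (limma adjusted p = 1), and mouse 3 stood far above the rest. At 7d it had 77.46, 80.13, 708.3 and 219 in loaded shells, against 46.91, 95.17, 168.7 and 68.32 in control shells. It was higher in 3 of 4 mice, and the groups overlapped. Ogn had 53.33, 76.84, 155.3, 41.55 and 37.09 in the loaded shells of the 5d mice, against 35.84, 44.66, 32.49, 24.82 and 30.96 in their control shells. It was higher in 5 of 5 mice, by 0.91 ± 0.29 (limma adjusted p = 1), and the loaded mice 4 and 5 lay below the highest control. At 1h, Aspn (−0.99) and Ogn (−0.66) were lower in the loaded shell of 5 of 5 mice, as Fmod was, with limma adjusted p of 1.

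**Figure D4:**
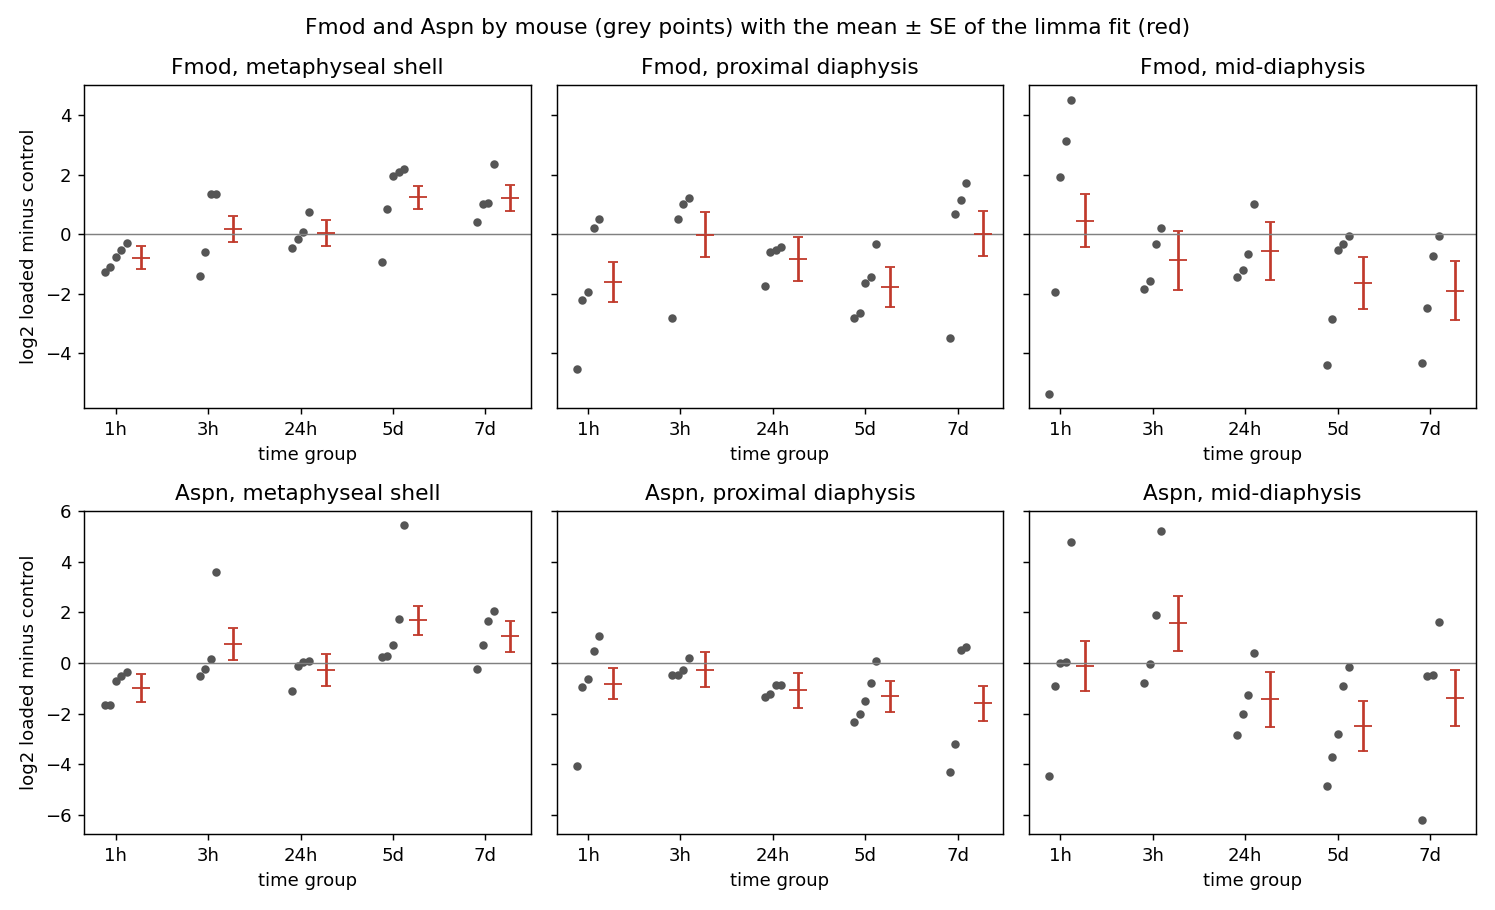
Log2 loaded minus control of Fmod and Aspn in each mouse (grey) by time and segment, with the mean ± SE in red (4 or 5 mice). In the shell at 5d, 4 of 5 mice lie above 0 for Fmod and 5 of 5 for Aspn.

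Markers of periosteum, tendon and fibroblasts summed to 2269 to 3872 in the loaded and 1451 to 2425 in the control shells at 5d. At 7d they summed to 1345 to 5830 in loaded shells and 1693 to 1846 in control shells, and the highest was the loaded shell of mouse 3. Chondrocyte markers at 7d summed to 3975 to 9233 in loaded shells (median 4538) and 2208 to 7214 in control shells (median 2719), and at 5d their medians were 1290 in loaded and 2262 in control shells. Skeletal muscle markers had medians of 2020 in loaded and 3327 in control shells at 5d, and of 701 in loaded and 5114 in control shells at 7d. Osteoblast markers had medians of 50010 in loaded and 71230 in control shells at 5d, and of 121200 in loaded and 166700 in control shells at 7d. The part of these cell types in the shell values of Fmod, Aspn and Ogn was not tested.

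In the proximal diaphysis at 5d, the mean difference of all 9 genes was negative, with a median of −0.80 against 0.04 over all genes. Dcn had 1324, 1285, 727.4, 589.8 and 877.6 in the loaded limbs of mice 1 to 5, against 2143, 2307, 975, 1691 and 2510 in their control limbs. It was lower in 5 of 5 mice, at −1.0 ± 0.33 (limma adjusted p = 1), and the control limb of mouse 3 lay among the loaded values. Lum had 297.3, 482, 224.9, 166.7 and 221 in loaded limbs, against 497.8, 851.9, 344.6, 411.7 and 768.4 in control limbs. It was lower in 5 of 5 mice, at −1.05 ± 0.34 (limma adjusted p = 1), and 1 loaded limb lay above the lowest control limb. Fmod had 92.56, 212.8, 21.77, 60.32 and 98.33 in loaded limbs, against 117.4, 585.4, 159.9, 189 and 630 in control limbs. It too was lower in 5 of 5 mice, at −1.78 ± 0.67 (limma adjusted p = 1). Aspn (−1.32) and Bgn (−0.80) were lower in 4 of 5 mice.

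At 7d, Dcn in the proximal diaphysis was lower in the loaded limb of 4 of 4 mice. Its values were 2155, 1548, 1958 and 2187 in the loaded limbs of mice 1 to 4, against 4172, 7534, 4790 and 4635 in their control limbs. The difference was −1.40 ± 0.37 (limma adjusted p = 0.147). Without 1h mouse 5, whose values enter the shared spread, the adjusted p was 0.0395, and without the 3 libraries low in osteocyte markers it was 0.0401, within a range of 0.0395 to 0.882 over its alternatives. Lum had 853.4, 723.2, 399.2 and 380.6 in loaded limbs, against 978.4, 1838, 818.7 and 829 in control limbs, lower in 4 of 4 mice (−0.92, limma adjusted p = 0.237). Aspn had 151.6, 66.96, 58.23 and 169.1 in loaded limbs, against 97.15, 1346, 539.6 and 119.9 in control limbs. Its mean difference of −1.59 rests on mice 2 and 3, and it was higher in the loaded limb of the other two. Fmod had 0.02, and its direction turned without 7d mouse 1 (−0.55), 2 (−0.36) or 4 (−0.20).

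Markers of osteoblasts also stood lower in the loaded proximal diaphysis. At 5d they summed to 17110 to 61590 in loaded limbs and 34110 to 102300 in control limbs. At 7d they summed to 97080 to 168100 in loaded limbs and 218700 to 877800 in control limbs. Chondrocyte markers at 7d summed to 570 to 956.9 in loaded limbs and 1321 to 3118 in control limbs, and at 5d their medians were 402.7 in loaded and 638.5 in control limbs. Skeletal muscle markers varied widely: at 5d they had a median of 415.6 in loaded limbs (179.7 to 7331) and 5055 in control limbs (3514 to 11870), and at 7d of 335.4 in loaded limbs (68.88 to 38850) and 3969 in control limbs (1110 to 20940). Markers of periosteum, tendon and fibroblasts at 7d summed to 1668 to 1829 in loaded limbs and 1598 to 5094 in control limbs, and osteocyte markers to 1436 to 1719 in loaded limbs and 1695 to 2270 in control limbs. The part of these cell types in the values of the 9 genes was not tested.

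At 1h, proximal Fmod had 64.65, 760.2, 558.4, 99.22 and 19.64 in the loaded limbs of mice 1 to 5, against 304.1, 534.4, 478, 383.6 and 482.7 in their control limbs. Mice 2 and 3 were higher and mice 1, 4 and 5 lower in the loaded limb, for a mean of −1.60 (limma adjusted p = 1). The lowest, mouse 5, was one of the 3 libraries low in osteocyte markers, and without these 3 the mean was −0.86.

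In the mid-diaphysis, Omd at 5d had 35.54, 25.08, 11.59, 9.05 and 3.82 in the loaded limbs of mice 1 to 5, against 108.8, 93.12, 40.51, 57.76 and 94.88 in their control limbs. Omd was lower in 5 of 5 mice, at −2.40 ± 0.82 (limma adjusted p = 0.590). The loaded values rest on 16, 14, 2, 13 and 4 reads, so counting error limits their precision. In 1 model over all libraries Omd was called, with an adjusted p of 0.0351 in a range of 0.0351 to 1 over its alternatives. Without the 4 libraries that held mesothelial markers, which include loaded mice 4 and 5, the Omd difference was −1.72. Aspn had 24.43, 77.04, 0, 0 and 6.686 in loaded limbs, against 47.14, 86.3, 6.076, 28.05 and 98.68 in control limbs. It was lower in 5 of 5 mice, at −2.49 (limma adjusted p = 0.590), and at −1.30 without the 4 libraries. The loaded Aspn values rest on 11, 43, 0, 0 and 7 reads. Lum had 353.2, 546.4, 179.6, 27.85 and 33.43 in loaded limbs, against 616.5, 424.7, 275.4, 326.7 and 299.8 in control limbs. It was lower in 4 of 5 mice (limma adjusted p = 0.590). The lowest loaded values, in mice 4 and 5, came from libraries that held mesothelial markers, and the mean of −1.54 became −0.35 without the 4 libraries.

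At 7d in the mid-diaphysis the mean difference of all 9 genes was negative, with a median of −1.39 against 0.02 over all genes. Omd had 0, 32.68, 31.46 and 30.35 in loaded limbs, against 66.23, 79.13, 26.74 and 156 in control limbs. The 0 came from mouse 1, one of the 3 libraries low in osteocyte markers, and the groups overlapped through mouse 3. The mean was −2.35 with all libraries (limma adjusted p = 0.570) and −1.12 without those 3. Without them, which leaves 3 mice, the median over the 9 genes was −0.85, and Dcn had −0.01 in place of −1.0, Bgn −0.07 in place of −1.0 and Podn −0.10 in place of −1.0. Aspn had −2.39 in place of −1.39, Fmod −1.71 in place of −1.90, Ogn −1.30 in place of −1.60, Prelp −0.85 in place of −1.44 and Lum −0.47 in place of −1.17. The Dcn values of mice 1 to 4 were −3.99, 0.01, 0.07 and −0.10, so mouse 1 carried its mean.

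Markers of other cell types differed between limbs in the mid-diaphysis too. Those of periosteum, tendon and fibroblasts at 7d summed to 261.3 to 1782 in loaded limbs and 2136 to 2773 in control limbs. Osteoblast markers at 7d summed to 9213 to 280100 in loaded and 186400 to 649900 in control limbs, and at 5d had medians of 17990 in loaded and 69940 in control limbs. Over all times, skeletal muscle markers had medians of 612.9 in loaded (69.62 to 20830) and 3113 in control mid-diaphyses (38.17 to 218100). Osteoclast markers had medians of 2638 in loaded and 4176 in control mid-diaphyses. Osteocyte markers went the other way, with medians of 2358 in loaded and 1934 in control mid-diaphyses. The part of these cell types in the mid-diaphyseal values was not tested.

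The times not yet described are 3h and 24h. At 24h in the shell, Fmod had a mean difference of 0.05, Aspn −0.27 and Lum 0.23, each with a limma adjusted p of 1, and at 3h in the shell Fmod had 0.18, higher in the loaded limb of 2 of 4 mice. In the proximal diaphysis at 24h, Fmod (−0.82), Aspn (−1.08), Ogn (−0.38) and Podn (−0.88) were lower in the loaded limb of 4 of 4 mice, with limma adjusted p of 1. At 3h there, Podn had 11, 6.43, 6.79 and 9.69 in the loaded limbs of mice 1 to 4, against 5.39, 3.59, 0 and 5.37 in their control limbs, too few reads to carry a fold. Prelp averaged over the segments at 3h was −1.11 (limma adjusted p = 0.507), and lower in 3 of 4 mice.

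The effect of 7 daily bouts beyond that of a single one was asked by 7d minus 24h of the averaged responses, and limma called 0 of 9, against 0.0383% of all genes. Dcn had −1.06 ± 0.30, Omd −1.53 ± 0.57 and Lum −0.80 ± 0.38, the 3 members with an unadjusted p under 0.05, and the adjusted p of Dcn was 0.289. Among all genes tested, 1101 had an unadjusted p under 0.05 in the averaged test. The same test in each segment called 0 of 9, against 0% of all genes.

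Averaged over the 3 segments, Dcn at 7d was −0.84 ± 0.22 and lower in 4 of 4 mice (limma adjusted p = 0.0914). Without 7d mouse 3 the value was −1.05 and the adjusted p 0.022, within a range of 0.022 to 0.903 over its alternatives. At 5d it was −0.59 and lower in 5 of 5 mice (limma adjusted p = 0.518). Of the pathway lists, limma called 0 genes at any time in the averaged comparisons. In each list the gene with the smallest p over the 5 times was Kera at 5d (1.06, adjusted p = 0.540), Col5a2 at 7d (−1.0, 0.0622), Chsy3 at 1h (−1.24, 0.999), Fut8 at 3h (1.04, 0.416) and Mmp13 at 24h (−1.69, 0.0684). Pcolce, the procollagen C-proteinase enhancer, had −0.80 at 7d with an adjusted p of 0.0579.

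Whether the shell and the proximal diaphysis responded differently was tested as the difference of their loaded minus control values in each mouse. At 5d all 9 genes had a positive mean, with a median of 1.03 against −0.04 over all genes, and limma called 0 of 9, against 0% of all genes. Members with an unadjusted p under 0.05 numbered 4, and genes under it numbered 299 among all genes tested. The Fmod values of mice 1 to 5 were 2.31, 3.56, 5.02, 2.49 and 1.74 in log2. The mean was 3.03 ± 0.67 (limma adjusted p = 0.193), and positive in 5 of 5 mice. The Aspn values were 3.22, 1.01, 5.37, 2.63 and 2.74, with a mean of 2.99 ± 0.68 (limma adjusted p = 0.193). The Lum values were 1.36, 1.41, 2.39, 1.15 and 1.60, with a mean of 1.58 ± 0.36 (limma adjusted p = 0.193).

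At 7d limma called 0 of 9 in this test, against 0.774% of all genes, and 4 members had an unadjusted p under 0.05. So did 2602 of all genes tested. The Lum values of mice 1 to 4 were 0.05, 1.63, 2.79 and 1.62, and mouse 1 was near 0. The mean was 1.52 ± 0.41 (limma adjusted p = 0.0608). Lum passed without 1h mouse 5 (0.041), 3h mouse 3 (0.0384), 3h mouse 4 (0.0499) or 7d mouse 1 (0.0241), within a range of 0.0241 to 0.411 over its alternatives. The Aspn values were 0.08, 4.06, 5.25 and 1.17, with a mean of 2.64 ± 0.77 (limma adjusted p = 0.0770). Aspn passed without 7d mouse 1 (0.0297) or mouse 4 (0.037), within a range of 0.0297 to 0.477. The Fmod values were −1.31, −0.12, 4.5 and 1.67, so mouse 3 carried its mean, and Dcn had 1.28 ± 0.41 (limma adjusted p = 0.101).

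The shell and the mid-diaphysis were set against each other in the same way, and limma called 0 of 9 at 5d and at 7d, against 0% of all genes each time. At 5d the mean was 4.17 for Aspn, 2.88 for Fmod, 2.51 for Omd and 2.06 for Lum, each positive in 5 of 5 mice, and these 4 members had an unadjusted p under 0.05 (limma adjusted p = 0.812 each). At 7d the mean was 3.11 for Fmod, 2.51 for Omd, 2.30 for Prelp, 2.27 for Ogn and 1.77 for Lum, each positive in 4 of 4 mice, and these 5 members had an unadjusted p under 0.05. The adjusted p of Fmod was 0.425. Among all genes tested, 763 had an unadjusted p under 0.05 at 5d and 927 at 7d. Loaded mid-diaphyses of 5d mice 4 and 5 are among the 4 libraries that held mesothelial markers, and that of 7d mouse 1 is among the 3 low in osteocyte markers. Without the 4, which leaves 3 mice at 5d, the mean was 3.76 for Aspn, 2.40 for Fmod, 2.26 for Omd and 1.35 for Lum. Without the 3, which leaves 3 mice at 7d, it was 3.18 for Fmod, 1.44 for Omd, 2.25 for Prelp, 1.89 for Ogn and 1.32 for Lum, and limma called 0 of 9 both times (lowest adjusted p of 1 at 5d and 0.261 at 7d).

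Over all 22 mice, a comparison that was added after the data had been seen and that mixes times, 8 of the 9 genes had a negative mean in the proximal diaphysis, with a median of −0.43 against 0.13 over all genes. Limma called 0 of 9, against 0% of all genes, with 5 members and 1262 of all genes tested at an unadjusted p under 0.05. Dcn was −0.55 and lower in 17 of 22 mice, Lum was −0.61 and lower in 17, and Bgn was −0.43 and lower in 17, with adjusted p of 0.406, 0.406 and 0.468. The shell minus proximal difference of responses was positive for all 9 genes, with a median of 0.46 against −0.14 over all genes. It was 0.84 ± 0.20 for Lum, 1.45 ± 0.38 for Aspn and 1.28 ± 0.35 for Fmod, each with an adjusted p of 0.501.

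**Figure D5:**
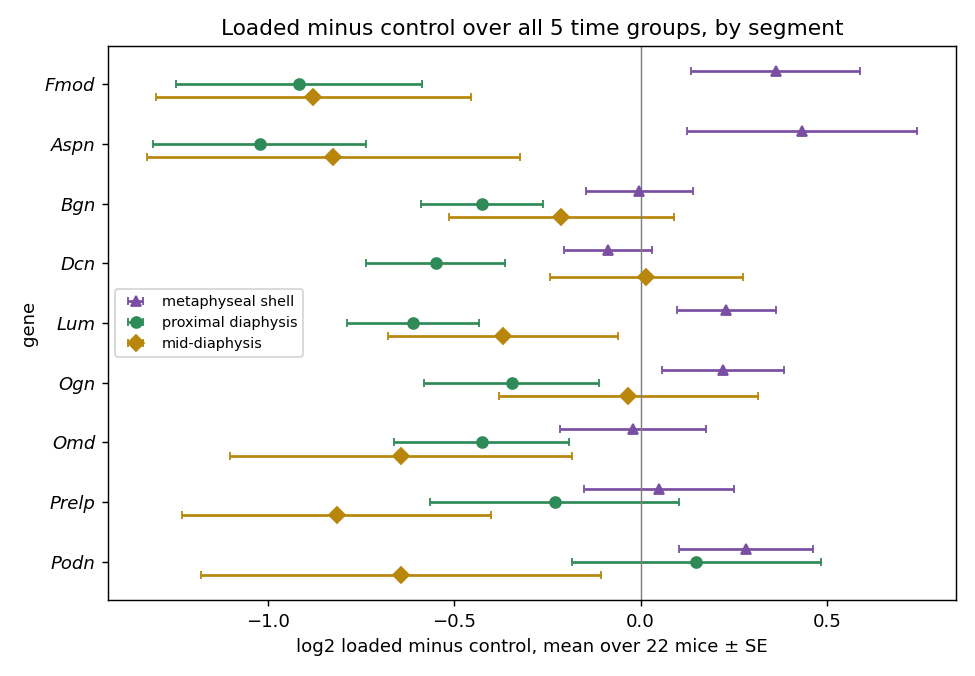
Mean log2 loaded minus control ± SE over all 22 mice for the 9 genes in each segment. In the proximal diaphysis 8 of the 9 means lie below 0.

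Within each of the 6 combinations of segment and limb (22 libraries each, which share mice but not libraries), Dcn and Lum, the chromosome 10 pair, varied together, with a Pearson r of 0.574 to 0.931. Lum and Omd had 0.501 to 0.822 and Dcn and Omd 0.434 to 0.801. Aspn and Omd, neighbours on chromosome 13, had 0.454 to 0.612. Aspn and Ogn, of the same cluster, had 0.127 in loaded mid-diaphyses and 0.796 in loaded shells. The r of Bgn was −0.808 to 0.041 with Ogn, −0.239 to 0.007 with Prelp, −0.559 to 0.133 with Podn, −0.656 to 0.176 with Aspn and −0.630 to 0.561 with Omd. It was −0.307 to 0.641 with Dcn, −0.097 to 0.668 with Fmod and −0.194 to 0.708 with Lum. Over all 36 pairs of members, the median r ran from 0.126 in control shells to 0.33 in loaded proximal segments. The 0.931 of Dcn and Lum came from loaded proximal segments. There 1h mouse 5, low in osteocyte markers, had the lowest value of both genes. The r of Omd with Ogn and of Prelp with Fmod is not given here. All these values describe libraries that pool 5 times and also differ in depth and cell content. Levels differed between times: over the segments of control limbs, Dcn averaged 4162 at 24h and 1842 at 5d. Lum averaged 968 at 24h and 476.4 at 1h.

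Over the 66 loaded libraries, the genes outside the list most like the mean of the 9 genes were Postn (r = 0.855), Thbs2 (0.834), Dkk3 (0.775), Col6a3 (0.774) and Olfml3 (0.770). Over the 66 control libraries they were Tnn (0.852), Smoc2 (0.843), Postn (0.804), Gja1 (0.797) and Tcf4 (0.756). Postn was on both lists. Of the single genes, Bgn had Mxra8 (0.908) and Fkbp10 (0.905) as its nearest over loaded libraries, and Fmod had Thbs2 (0.818) and Matn4 (0.802).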

How the data were processed

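The normalized counts of all libraries of 22 mice were analysed as deposited. Their values are a signal, gene counts that the authors divided by size factors, 1 column a library. STAR, FastQC, DESeq2 and the genome build mm10 are named in the submitters' processing notes; the counting tool, annotation and strand setting are not given in the sources used here. Whole reads were recovered from the steps of each column (100% of values within 0.02 of a whole number) and gave 290325 to 5410458 reads a library. No 2 libraries held identical reads, and of 228 pairs of libraries of 1 group 0 agreed within sampling noise by a chi-square test over genes with at least 20 reads in the pair (lowest value 2.41 per degree of freedom). 0 columns had no sample, 27 symbols had turned into dates and 4897 genes were at 0 in every library.

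Loaded and control segments were paired by the replicate number that closes each sample title, which was taken to mark the same animal within a time. The column headers number the libraries and do not name the animal, so the pairing is an assumption. The deviations of paired limbs had a median correlation of 0.172 for shells, 0.048 for proximal and −0.003 for mid-diaphyseal segments. Differences within mice of log2(normalized count + 1) were tested with limma 3.58.1 in R 4.3.3, with the variance trend over the mean log2 level of each gene, a filter of 10 or more in at least 4 libraries, which left 13050 genes, and Benjamini-Hochberg adjustment at 0.05. The scripts were tested on simulated data. Alternatives were edgeR 4.0.16 (quasi-likelihood test on recovered reads), pseudocounts of 0.5 and 5, no filter, a filter at a mean of 50, upper-quartile scaling at 75%, no replicate block, 1 model over all libraries (consensus correlation 0.0318) and each mouse left out. Chosen after seeing the data or from earlier results of them were the comparisons over all 22 mice, leaving out 4, 3 or 10 libraries and a variance trend over the mean difference, an earlier form of the fit that was replaced. The 4 and the 3 are named above. The 10 are not listed here, so values without them show only that a result moved with the libraries used. Tables and figures were made with Python 3.11.15, numpy 2.4.6, pandas 2.3.3 and matplotlib 3.10.9.

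The 9 genes, the marker and pathway lists were chosen with earlier results of these data known. The rule for named genes took all 9 genes in every comparison; of these the text gives between segments each value, and in the loading comparisons the members that stand out, with the range of the 9 in each segment and time and all 9 in the heat map. It took of each pathway list up to 4 genes past the threshold by size or, where none passed, the 1 with the smallest p. Pcolce was named after its value was seen. The genes most like the family had the highest Pearson correlation with the mean of the standardized values of the 9. The labels do not say that mice of a group were housed or loaded apart, so p-values measure the spread between these mice.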

Additional observations from a re-analysis of the deposited data

Results flagged for a closer look

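In each segment and time and for the mean of the 3 segments, loaded minus control in log2 was searched for 1 mouse far from the 4 or 5 of its group, by the critical value of Dixon's test. Of 180 groups 16 had one, where chance gives about 1 in 20.

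In the shell, Aspn had 3.59 in 3h mouse 1, with the nearest mouse at 0.14, and 5.43 in 5d mouse 3, with the nearest at 1.72. Ogn had 2.22 in the same 5d mouse 3, with the nearest at 0.77, and −0.35 in 7d mouse 2, below a nearest of 0.90. Dcn had −0.64 in 1h mouse 5, below a nearest of 0.14.

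In the proximal diaphysis, 1h mouse 5 was far below the rest for Bgn (−2.27, nearest −0.65), Dcn (−2.90, nearest −0.24) and Lum (−3.18, nearest −0.52). Its loaded library is one of the 3 low in osteocyte markers. Fmod had −1.74 in 24h mouse 4, with the nearest at −0.60. Podn had −1.82 in 24h mouse 1, with the nearest at −0.61, and 2.96 in 3h mouse 3, with the nearest at 0.91.

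In the mid-diaphysis, Dcn had −3.99 in 7d mouse 1, whose loaded library is also low in osteocyte markers, with the nearest at −0.10. Podn had 5.43 in 7d mouse 4, with the nearest at −2.79. Averaged over segments, Aspn had −0.29 in 24h mouse 1 (nearest −1.08), Fmod −2.02 in 3h mouse 4 (nearest 0.27) and Podn 0.82 in 24h mouse 2 (nearest −0.84).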

How the results depend on the processing

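The counts in this section are of calls, so a gene called in several comparisons is counted each time. Each limb had 27 tests of members between segments. Control limbs had 8 calls, and 5 with the variance trend over the mean difference. Fmod (adjusted p = 0.0566) and Aspn (0.0682) were then lost between proximal and mid-diaphysis, within ranges of 1.77e-07 to 0.0566 and 5.24e-06 to 0.0682 over their alternatives. Leaving out a mouse gave 7 to 10 calls. Loaded limbs had 9 calls, 5 with a filter at a mean of 50 (which removes Podn and Prelp) and 5 without 10 libraries. With a mouse left out they had 8 to 9.

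For loaded minus control by segment the count was 0, and 1 in 1 model over all libraries (Omd, mid 5d), 1 without the 3 libraries low in osteocyte markers (Dcn, proximal 7d) and 1 without 10 libraries (Lum, proximal 5d); leaving out a mouse gave 0 to 1. Averaged over segments it was 0, and 0 to 1 leaving out a mouse. For the difference of responses between segments it was 0, and 1 with a filter at a mean of 50, 1 without the 3 libraries and 2 without 10 libraries (Fmod and Lum, 5d); leaving out a mouse gave 0 to 2. Between times, and over all 22 mice, it was 0 in each of these.

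Without the replicate block, that is without pairing by mouse, there were 6 calls of members in control limbs, 8 in loaded limbs and 0 in each loading comparison. Fmod at 7d in the proximal diaphysis (0.02) turned to −0.36 without 10 libraries and ranged from −0.55 to 1.19 with a mouse left out, and Omd averaged at 7d (−1.08) turned to 0.23. Of the single results, 733 kept their direction and side of the threshold under other settings, 20 gained a call, 24 lost one and 2 turned. With a mouse left out 1466 kept, 11 gained, 16 lost and 3 turned.

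The counts over all genes depended on scaling. Upper-quartile scaling moved the median of all genes from shell minus mid-diaphysis in control limbs to 0.37 against 0.17, and the calls to 2469 higher and 19 lower against 865 and 96. In control shell minus proximal it gave 1356 calls, 1237 of them higher, against 843 and 598. With edgeR the 3 control comparisons called 422, 585 and 10 genes against 961, 843 and 27 by limma, and the loaded ones 674, 315 and 53 against 1380, 431 and 215. Other counts moved by more than 1.5 times. Without the block, control shell minus proximal gave 240, control proximal minus mid 14 and loaded shell minus proximal 32. In 1 model the first gave 96 higher and 18 lower, the others 252 and 22, and loaded shell minus mid and proximal minus mid gave 2218 and 696. A filter at a mean of 50 gave 417 and 421 in control and loaded shell minus mid and 49 in loaded proximal minus mid. With no filter control proximal minus mid gave 6 and loaded shell minus proximal 251. Upper-quartile scaling gave 3123, 823 and 669 in the loaded limbs. Without the 4 libraries, control and loaded proximal minus mid gave 14 and 74. Without the 3, loaded shell minus proximal gave 717, and without 10 it gave 723, with 1323 in control shell minus proximal and 62 in loaded proximal minus mid. With the variance trend over the mean difference, control shell minus proximal gave 472, control proximal minus mid 2, and the last 2 loaded comparisons 8 and 122. With a mouse left out the counts ran from 538 to 1237 and from 14 to 44 in the last 2 control comparisons, and from 195 to 795 and up to 261 in the last 2 loaded ones. Depth limits the low genes: Podn had a median of 11 reads a library and Prelp 25.5.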
